A study of Mus musculus with 24 samples.

Results

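The genes described here mark the early stages of the oligodendrocyte lineage. They are 9 genes taken from the deposited expression files by their symbols, of 48526 genes measured in all. Pdgfra, Cspg4 and C1ql1 mark precursor cells. Bmp4, Gpr17, Enpp6 and Bcas1 mark committed precursors and newly formed oligodendrocytes. Olig1 and Olig2 encode transcription factors found throughout the lineage. Levels are in FPKM, the fragments of a gene scaled for its length and for the mapped fragments of the library. All 9 reached 1 FPKM in 3 or more libraries of each region, so all were tested in both regions.

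Oligodendrocyte precursors persist in the adult brain, where they divide and give rise to new myelinating cells. A precursor that starts to differentiate lowers Pdgfra and Cspg4, passes through a brief stage marked by Gpr17 and Bmp4, and then switches on Enpp6 and Bcas1 before the main myelin proteins. Prefrontal cortex and ventral striatum both hold these cells among neurons and other glia.

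The study measured RNA of the prefrontal cortex (PFC) and nucleus accumbens (NAc) of mice under chronic jet lag. All were male C57BL/6J mice, bought at 8 weeks of age and first entrained to 12 h of light and 12 h of dark for 2 weeks. The CJL mice had their lights advanced by 6 h every 2 days, and the Ctrl mice stayed on the regular cycle. Tissue was taken on Day 10 at ZT13 (early dark) and ZT1 (early light), 3 mice per time and lighting, which gives 8 groups of 3 libraries. Each mouse gave both regions, but the labels do not say which NAc and PFC libraries share a mouse, so regions were compared without pairing. P values set a difference against the spread within groups of 3 mice, pooled over all groups of a fit. In comparisons of regions, both libraries of a mouse were treated as independent.

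Markers of the dissected regions fitted their labels: all 12 striatal neuron genes listed were higher in NAc than in PFC in both lightings, and 9 of 12 genes of cortical projection neurons were lower. Libraries of a group had Spearman's rho of 0.937 to 0.946 to each other across genes. In 6 of the 24 libraries, the mean log2 level of markers of a neighbouring tissue exceeded the median of its region by more than 1.5. Choroid plexus markers did so in PFC ZT13 CJL replicate 1, PFC ZT13 Ctrl replicate 1 and NAc ZT13 Ctrl replicate 3, and olfactory bulb markers in PFC ZT1 CJL replicate 2. Markers of thalamus and hypothalamus did so in NAc ZT13 CJL replicate 3, NAc ZT1 CJL replicate 2 and NAc ZT13 Ctrl replicate 3. They summed to 29.8 to 508 FPKM in NAc (median 107) and 21.1 to 32.7 FPKM in PFC. The cut starts from the median of each region, so NAc libraries under it can hold them too. In NAc ZT1 CJL the sums were 84.5, 430 and 441 FPKM. Striatal neuron genes summed to 646 to 1817 FPKM within NAc. The part of these tissues in the regional differences below was not tested. Each comparison of groups below includes at least 1 of the 6 libraries, and values without them are given beside some of the results. In bulk tissue, fewer cells of a type and less RNA per cell cannot be told apart.

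The positions are those of the deposited files, on mm10. Pdgfra (ENSMUSG00000029231, chr5:75152292-75198215) encodes the receptor for PDGF-A, the mitogen of precursors, and is also expressed by fibroblasts of vessels. Cspg4 (ENSMUSG00000032911, chr9:56865104-56899870) encodes the proteoglycan NG2, carried by precursors and by pericytes. C1ql1 (ENSMUSG00000045532, chr11:102939264-102946688) encodes a secreted protein of the C1q family. Bmp4 (ENSMUSG00000021835, chr14:46383520-46390669) encodes a secreted ligand of BMP receptors, whose signaling holds back oligodendrocyte differentiation. Gpr17 (ENSMUSG00000052229, chr18:31942997-31949636) encodes a receptor that restrains maturation in mice. Enpp6 (ENSMUSG00000038173, chr8:46986887-47096762) encodes a phosphodiesterase that acts on choline phospholipids. Bcas1 (ENSMUSG00000013523, chr2:170346991-170427845) encodes a protein of newly myelinating cells. Olig1 (ENSMUSG00000046160, chr16:91269772-91271933) and Olig2 (ENSMUSG00000039830, chr16:91225550-91228677) encode basic helix-loop-helix factors, with Olig2 needed to specify the lineage and Olig1 linked to its maturation. The end of Olig2 lies 41095 bases from the start of Olig1.

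In the GENCODE M21 annotation some members overlap other genes, and reads of overlapping genes cannot be told apart where strand is not used, which the sources used here do not state. Gpr17 lies within Lims2 on the opposite strand, sharing 188 of its 5195 exonic bases. Lims2 had 3.34 to 6.88 FPKM over all libraries. Bcas1 shares 440 of its 3775 exonic bases with the antisense gene Bcas1os1, which reached at most 0.399 FPKM. The other partners whose levels were read reached at most 0.804 FPKM, and Gm45600, which lies at Enpp6 and shares none of its exonic bases, is not analysed here.

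The start-site sequences of 5 of the 9 members were in the RefSeq table used. Those of Pdgfra, Bmp4 and Olig2 are shown because Pdgfra was higher and Bmp4 lower in NAc than in PFC, and because Olig2 varied with its neighbour Olig1. Each is the 250 bases before the annotated start on GRCm38.p6, 5′ to 3′. Capitals mark CANNTG, the E-box letters read by basic helix-loop-helix factors, searched on both strands (the motif is its own reverse complement). Pdgfra is chr5:75152001-75152250 on the plus strand, Bmp4 chr14:46390670-46390919 on the minus strand and Olig2 chr16:91225300-91225549 on the plus strand.
Pdgfra: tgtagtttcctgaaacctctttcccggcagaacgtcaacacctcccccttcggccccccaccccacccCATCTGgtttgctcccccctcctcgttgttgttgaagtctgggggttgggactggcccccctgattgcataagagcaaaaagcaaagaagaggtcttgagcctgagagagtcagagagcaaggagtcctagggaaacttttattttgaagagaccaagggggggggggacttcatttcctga
Bmp4: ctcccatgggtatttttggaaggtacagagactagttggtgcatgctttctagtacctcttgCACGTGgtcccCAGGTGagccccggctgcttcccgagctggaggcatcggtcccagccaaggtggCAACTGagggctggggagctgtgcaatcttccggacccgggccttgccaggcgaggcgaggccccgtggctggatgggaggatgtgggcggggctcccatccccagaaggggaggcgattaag
Olig2: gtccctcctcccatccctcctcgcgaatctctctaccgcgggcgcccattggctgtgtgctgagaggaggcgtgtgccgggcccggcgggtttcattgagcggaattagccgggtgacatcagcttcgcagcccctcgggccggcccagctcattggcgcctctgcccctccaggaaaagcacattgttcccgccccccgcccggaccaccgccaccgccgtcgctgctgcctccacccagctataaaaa
The window of Bmp4 held 3 E-box matches, one of which was CACGTG, that of Pdgfra held 1 and that of Olig2 held 0. Of 32851 promoter windows of the same length, 66.2% held CANNTG and 6.02% held CACGTG, so a match is common and is a description of these letters only. TATAAA, searched on both strands, was found once in the Olig2 window, at -8 from the start used here, and in 12.4% of all windows. GENCODE M21 starts Olig2 at 91225457, inside this window, so by that annotation the match lies within the gene. The G and C share was 54.4% for Pdgfra, 63.2% for Bmp4 and 66.8% for Olig2, with a median of 52.4% over all windows.

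The order of the group means followed region for most of the 9 genes. Olig1 and Bcas1 had the highest FPKM of the 9, and Bmp4 and Cspg4 the lowest. For 6 genes (Pdgfra, C1ql1, Gpr17, Enpp6, Olig1 and Olig2) the 4 NAc groups held the 4 highest means. Bmp4 had the reverse order, with all 4 PFC means at or above the NAc means. The ratio of the highest to the lowest group mean ran between 1.31 for Cspg4 and 2.38 for C1ql1. Most neighbours in the order of means overlapped: between neighbouring groups, the libraries did not overlap at 1 step for Pdgfra, Bmp4, Gpr17, Bcas1 and Olig1, at 2 steps for Olig2 and at none for Cspg4, C1ql1 and Enpp6.

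**Figure D1:**
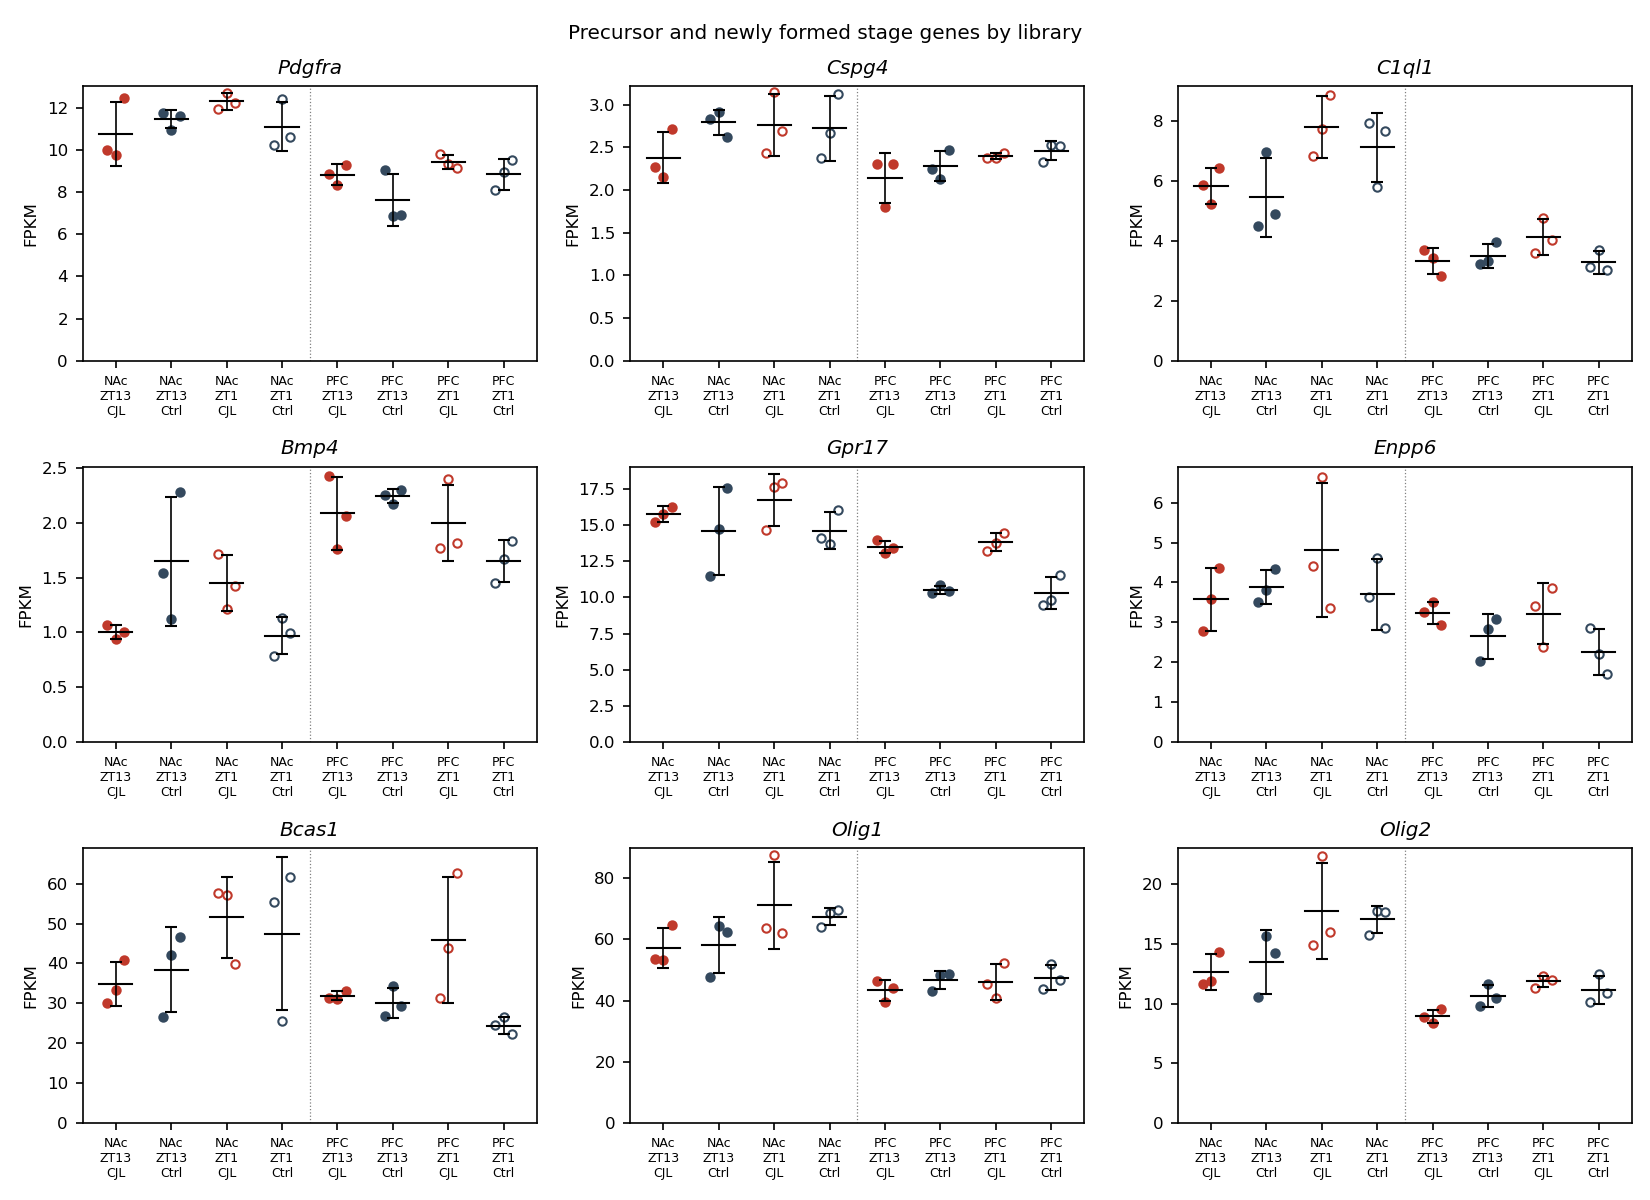
FPKM of the 9 genes in each library, with 3 points per group of region, time and lighting (red CJL, dark blue Ctrl, filled ZT13, open ZT1), the group mean as a bar and its SD as whiskers. NAc groups stand left of the dotted line. C1ql1 lies at 4.48 to 8.86 FPKM in NAc and 2.84 to 4.76 FPKM in PFC, while Bmp4 is lower in most NAc libraries.

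The comparison of regions asked which of the genes differ between NAc and PFC within a lighting. By the authors' sequencing statistics, every NAc library had a lower mapping rate and lower base quality than every PFC library. Sequencing quality and region thus go together in these comparisons, and the part of quality was not tested. In CJL mice 5 of the 9 genes were higher in NAc and 1, Bmp4, was lower at a Benjamini-Hochberg adjusted p under 0.05. By the same threshold 56.4% of all 16072 genes tested differed, 37.9% being higher and 18.4% lower, so a regional difference is common among all genes. In Ctrl mice 7 were higher and Bmp4 was lower, against 33.5% higher and 16.9% lower of all genes (50.4% together). The libraries of the regions did not overlap for 4 members in CJL mice (34.5% of all genes) and for 2 in Ctrl mice (22.3%). The median log2 difference of the 9 was 0.33 in CJL mice and 0.47 in Ctrl mice, and that of all genes 0.14 in CJL and 0.11 in Ctrl mice. After median-of-ratios or quantile scaling the median of all genes lay within 0.01 of 0, and every direction of the called members stayed.

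Of the precursor genes, C1ql1 had the largest difference among the 9. In CJL mice it had 5.85, 5.23 and 6.43 FPKM in NAc at ZT13 and 6.81, 7.73 and 8.86 FPKM in NAc at ZT1, against 3.70, 3.42 and 2.84 FPKM in PFC at ZT13 and 3.58, 4.76 and 4.04 FPKM in PFC at ZT1. Every NAc library lay above every PFC library of its lighting. In Ctrl mice it had 4.48, 6.95 and 4.90 FPKM in NAc at ZT13 and 7.91, 5.79 and 7.65 FPKM in NAc at ZT1, against 3.21, 3.31 and 3.95 FPKM in PFC at ZT13 and 3.12, 3.70 and 3.01 FPKM in PFC at ZT1. The log2 fold change of NAc over PFC was 0.85 with an SE of 0.12 (limma, adjusted p = 4.48e-06) in CJL mice. In Ctrl mice it was 0.85 with an SE of 0.12 (limma, adjusted p = 6.34e-06).

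Pdgfra averaged 11.5 ± 1.30 FPKM in NAc and 9.14 ± 0.498 FPKM in PFC of CJL mice (SD, n = 6 libraries each). It averaged 11.3 ± 0.813 FPKM in NAc and 8.24 ± 1.14 FPKM in PFC of Ctrl mice. The log2 fold change was 0.33 with an SE of 0.08 (limma, adjusted p = 0.00127) in CJL mice and 0.46 with an SE of 0.08 (limma, adjusted p = 6.3e-05) in Ctrl mice. The regions did not overlap in Ctrl mice and overlapped in CJL mice. Cspg4 had 2.15 to 3.15 FPKM in NAc and 1.80 to 2.53 FPKM in PFC over all libraries. It did not pass the test, with log2 fold changes of 0.17 in CJL mice (95% interval -0.02 to 0.36, adjusted p = 0.127) and 0.21 in Ctrl mice (0.01 to 0.40, adjusted p = 0.0688).

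Among the genes of committed and newly formed cells, Bmp4 ran against the others. In CJL mice Bmp4 had 1.07, 0.937 and 1.01 FPKM in NAc at ZT13 and 1.71, 1.21 and 1.42 FPKM in NAc at ZT1, against 2.43, 1.76 and 2.07 FPKM in PFC at ZT13 and 1.77, 2.40 and 1.82 FPKM in PFC at ZT1. All NAc libraries of CJL mice lay below all PFC libraries. In Ctrl mice it had 1.54, 1.12 and 2.28 FPKM in NAc at ZT13 and 0.787, 1.13 and 0.992 FPKM in NAc at ZT1, against 2.26, 2.17 and 2.30 FPKM in PFC at ZT13 and 1.45, 1.67 and 1.84 FPKM in PFC at ZT1. Here 2 NAc ZT13 libraries reached into the PFC range. The log2 fold change of NAc over PFC was -0.71 with an SE of 0.15 (limma, adjusted p = 0.000363) in CJL mice and -0.60 with an SE of 0.15 (limma, adjusted p = 0.00201) in Ctrl mice. Genes of pericytes and vascular fibroblasts were lower in NAc as well, 10 of 12 at an adjusted p under 0.05 in each lighting. Their summed level was 57.8 to 80.2 FPKM in NAc and 83.4 to 106 FPKM in PFC, with every gene of the list above 0 in every library. Genes of endothelium were lower too, 9 of 10 in each lighting. The part of these cells in the Bmp4 difference was not tested.

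Gpr17 had 11.5 to 17.9 FPKM in NAc and 9.50 to 14.5 FPKM in PFC over all libraries, and Enpp6 2.78 to 6.65 FPKM in NAc and 1.71 to 3.87 FPKM in PFC. Gpr17 was higher in NAc, with a log2 fold change of 0.25 with an SE of 0.08 (limma, adjusted p = 0.0159) in CJL mice and 0.48 with an SE of 0.08 (limma, adjusted p = 8.7e-05) in Ctrl mice. In CJL mice Gpr17 was not called after median-of-ratios scaling (log2 0.12, adjusted p = 0.240) or without the neighbouring-tissue libraries (0.22, adjusted p = 0.0702). Enpp6 passed in Ctrl mice, at 0.62 with an SE of 0.18 (limma, adjusted p = 0.00601), and in CJL mice it stood at 0.33 (95% interval -0.03 to 0.70). Bcas1 was likewise called in Ctrl mice, at 0.59 with an SE of 0.20 (limma, adjusted p = 0.0168), and in CJL mice it stood at 0.16 (95% interval -0.25 to 0.57). The NAc libraries of Ctrl mice spread widely for Bcas1, between 25.6 and 61.6 FPKM, and without the neighbouring-tissue libraries its call was lost (log2 0.47, adjusted p = 0.130). The tests of whether the regional difference changed with lighting called none of the 9 in limma at either time, nor any of all genes (0%). At an unadjusted P under 0.05 they gave none of the 9, against 12.6% of all genes at ZT13 and 10.8% at ZT1. The time effect in NAc minus that in PFC was not called for any member either, against 0% of all genes in CJL mice (3.35% unadjusted) and 0.56% in Ctrl mice (16.8% unadjusted), with no member past an unadjusted P of 0.05.

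Olig1 and Olig2 were both higher in NAc in both lightings. Olig1 averaged 64.2 ± 12.5 FPKM in NAc and 44.8 ± 4.57 FPKM in PFC of CJL mice, a log2 fold change of 0.50 with an SE of 0.09 (limma, adjusted p = 0.000126). In Ctrl mice Olig1 averaged 62.8 ± 7.92 FPKM in NAc and 47.1 ± 3.22 FPKM in PFC, a log2 fold change of 0.41 with an SE of 0.09 (limma, adjusted p = 0.00122). Olig2 averaged 15.2 ± 3.89 FPKM in NAc and 10.4 ± 1.67 FPKM in PFC of CJL mice, and 15.3 ± 2.68 FPKM in NAc and 10.9 ± 0.988 FPKM in PFC of Ctrl mice. It differed by 0.52 with an SE of 0.10 (limma, adjusted p = 0.000198) in CJL mice and by 0.47 with an SE of 0.10 (limma, adjusted p = 0.000742) in Ctrl mice.

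Genes of mature myelin moved in the same direction. Of 20 such genes, 12 were higher and none lower in NAc of CJL mice (median log2 0.45), and 16 were higher and none lower in Ctrl mice (median 0.52). The summed level of the list was 1423 to 3323 FPKM in NAc and 1138 to 1715 FPKM in PFC, and no gene of it was at 0. With the mean mature myelin level of each library as a covariate, 3 of the 9 members were called in Ctrl mice: Pdgfra (0.50), C1ql1 (0.78) and Gpr17 (0.34). In the same fit Enpp6 stood at 0.11, Bcas1 at 0.14, Olig1 at 0.11, Olig2 at 0.19 and Bmp4 at -0.46 (adjusted p = 0.0665). In CJL mice 5 were called with the covariate: Pdgfra (0.36), C1ql1 (0.80), Bmp4 (-0.59), Olig1 (0.25) and Olig2 (0.29). Pdgfra and C1ql1 were therefore called with and without the myelin level in both lightings.

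**Figure D2:**
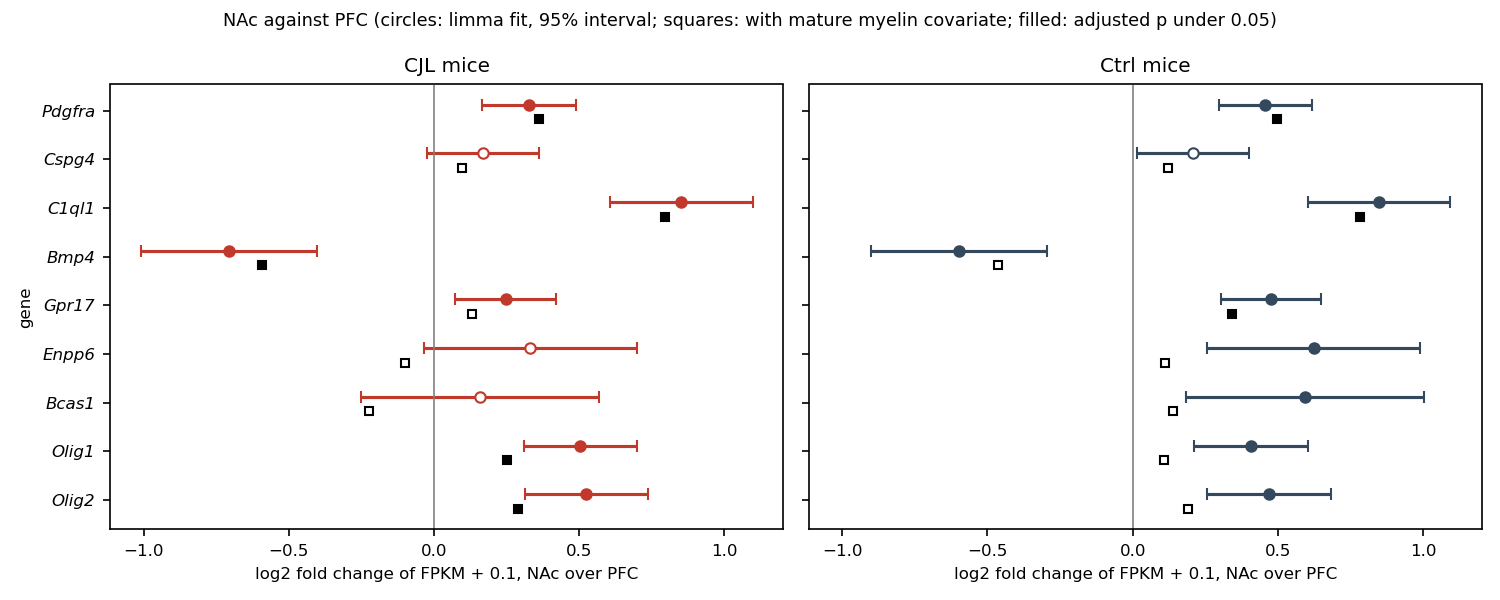
Log2 fold change of NAc over PFC for each gene in CJL and Ctrl mice, from limma on log2(FPKM + 0.1), with 95% intervals (circles), and the same with the mature myelin level as a covariate (squares). Filled symbols have an adjusted p under 0.05. C1ql1 lies between 0.78 and 0.85 in all 4 fits, and with the covariate Enpp6 and Bcas1 lie between -0.22 and 0.14.

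Other genes of the lineage, from lists beside the members, were mostly higher in NAc. Of 18 other precursor genes, 11 were higher and 3 lower in NAc of CJL mice, and 10 were higher and 3 lower in Ctrl mice. The 3 with the smallest P were Lhfpl3 (log2 1.48 in CJL and 1.62 in Ctrl mice), Cacng4 (1.18 and 1.33) and, in CJL mice, Cspg5 (-0.37), whose place Sox6 took in Ctrl mice (0.70). Of 18 other committed and newly formed stage genes tested, 9 were higher and 1 lower in CJL mice, and 12 were higher and 1 lower in Ctrl mice, led by Elovl6 (0.74) in CJL mice and Chn2 (1.12) in Ctrl mice. Of 13 lineage transcription factors, 9 were higher and 2 lower in CJL mice, and 9 were higher and 3 lower in Ctrl mice. Id4 was higher (1.20 in CJL and 1.28 in Ctrl mice) while Id2 (-1.04 and -0.80) and Sox5 (-1.02 and -1.18) were lower. Cortical neurons also express Id2 and Sox5. In the PDGF and BMP signaling list, 4 of 22 were higher and 9 lower in CJL mice, and 5 were higher and 6 lower in Ctrl mice. Chrd, which encodes the secreted BMP antagonist chordin, was lower in NAc (log2 -1.20 in CJL and -1.59 in Ctrl mice), the same direction as Bmp4. Pdgfb, a PDGF ligand, was also lower (-0.77 and -0.66).

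CJL was compared with Ctrl at each time within a region, which asks whether the shifting light cycle changed these genes. The comparisons of lighting and those of time within a region share their groups, so they are not independent of each other. In PFC at ZT1, Gpr17 was higher in CJL mice at an adjusted p under 0.05 and the other 8 were not called. The share called among all 14914 genes was 1.59%, with 1.17% higher. Gpr17 had 13.2, 13.8 and 14.5 FPKM in CJL mice, against 9.50, 9.82 and 11.6 FPKM in Ctrl mice. All CJL libraries lay above all Ctrl libraries, and 17% of all genes had groups that did not overlap with CJL higher. The log2 fold change of Gpr17 was 0.43 with an SE of 0.08 (limma, adjusted p = 0.0313), and it was called in 5 of the 15 alternatives, with log2 values of 0.37 to 0.51 and adjusted p values of 0.0323 to 0.110 over all of them. Without PFC ZT1 CJL replicate 2, the library with high olfactory bulb markers, it was 0.43 (adjusted p = 0.106), so the size stayed and the call did not. Leaving out each of the other libraries also ended the call, except for PFC ZT1 Ctrl replicate 1 (adjusted p = 0.0495).

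In PFC at ZT13, Gpr17 had 14.0, 13.1 and 13.4 FPKM in CJL mice, against 10.3, 10.8 and 10.4 FPKM in Ctrl mice. Again no CJL library reached down to a Ctrl library. The log2 fold change was 0.36 with an SE of 0.08 (limma, adjusted p = 0.281), which is not past the threshold, and without the neighbouring-tissue libraries it was 0.32 (adjusted p = 0.173). Of all genes 0.0201% were called at this time, while 7.93% did not overlap with CJL higher. Gpr17 and Olig2 were the 2 members past an unadjusted P of 0.05, against 12.6% of all genes. The difference between the effects at the 2 times was -0.07 (95% interval -0.32 to 0.18). Averaged over both times, a contrast added after the values were seen, the log2 fold change of Gpr17 in PFC was 0.39 ± 0.06 (SE), limma adjusted p = 0.0608. In that average 0.0268% of all genes were called. Lims2, which overlaps it, had log2 fold changes of -0.20 at ZT1 and -0.33 at ZT13, opposite in sign to Gpr17. In NAc Gpr17 stood at 0.20 at ZT1 (95% interval -0.12 to 0.51) and 0.13 at ZT13 (-0.18 to 0.44). The CJL effect in NAc minus that in PFC was -0.23 at ZT1 (adjusted p = 0.621) and -0.23 at ZT13 (adjusted p = 0.580), so a regional difference in the response was not shown.

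Bcas1 had the largest CJL difference of the 9 in PFC at ZT1 and did not pass the threshold. It had 31.3, 44.0 and 62.7 FPKM in CJL mice, against 24.5, 26.5 and 22.2 FPKM in Ctrl mice. The groups did not overlap, and the 3 CJL libraries spread widely. The log2 fold change was 0.86 with an SE of 0.19 (limma, adjusted p = 0.0521). It was 1.11 with an adjusted p of 0.0300 without PFC ZT1 CJL replicate 1, and 0.61 without replicate 3 (adjusted p = 0.0852). At ZT13 Bcas1 had 31.4, 31.0 and 33.1 FPKM in CJL mice, against 26.8, 34.3 and 29.3 FPKM in Ctrl mice, with a log2 fold change of 0.09 and groups that overlapped. The effect at ZT13 minus that at ZT1 was -0.77 (unadjusted P = 0.0157, limma adjusted p = 0.173). That of Olig2 was -0.34 (adjusted p = 0.207), and no member was called. These were the 2 members past an unadjusted P of 0.05, against 18.4% of all genes, of which 0.0805% were called. Mature myelin genes gave positive values for 19 of 20 in PFC at ZT1, with summed levels of 1202 to 1674 FPKM in CJL and 1138 to 1362 FPKM in Ctrl libraries, and with their level as a covariate Bcas1 stood at 0.74 and Gpr17 at 0.43. Markers of other cells moved too at ZT1. The summed level of 8 ependymal markers was 6.74 to 7.99 FPKM in CJL and 4.15 to 5.55 FPKM in Ctrl libraries, and the mean log2 level of 10 microglial markers was 3.97 to 4.07 in CJL and 3.85 to 3.96 in Ctrl libraries, with 1 of these called (Trem2). The summed level of the microglial markers overlapped, at 206 to 220 FPKM in CJL and 198 to 208 FPKM in Ctrl libraries. The part of these other cells in the values of Gpr17 and Bcas1 was not tested.

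Of the other members in PFC at ZT1, C1ql1 (0.32, adjusted p = 0.223) and Enpp6 (0.49, adjusted p = 0.229) were past an unadjusted P of 0.05, as were Gpr17 and Bcas1, which makes 4 of 9 against 13.8% of all genes. Enpp6 was 0.31 without PFC ZT1 Ctrl replicate 3, 0.35 without CJL replicate 3, 0.69 without CJL replicate 2 and 0.23 with the mature myelin covariate. C1ql1 was 0.21 without CJL replicate 2. Pdgfra, Cspg4, Olig1 and Olig2 stood between -0.04 and 0.09. The median of the 9 was 0.25, that of mature myelin genes 0.19 and that of all genes 0.04. None of the 20 mature myelin genes or of the 18 other committed and newly formed stage genes was called, and 4 and 7 of them were higher at an unadjusted P under 0.05. Of the 17 other precursor genes tested 1 was higher, Cspg5 (0.32, adjusted p = 0.0316), which encodes neuroglycan C and is expressed by neurons too. Of the 21 PDGF and BMP signaling genes tested 1 was higher, Id1 (0.40, adjusted p = 0.0367), a target of BMP signaling. At ZT13 in PFC, Olig2 was lower without overlap (8.89, 8.40 and 9.50 FPKM in CJL mice, against 9.82, 11.6 and 10.4 FPKM in Ctrl mice), with a log2 fold change of -0.25 with an SE of 0.09 (limma, adjusted p = 0.337). Without the neighbouring-tissue libraries it was -0.30. Of all genes, 9.97% did not overlap with CJL lower there. Olfactory bulb markers summed to 27.1 to 42.7 FPKM in CJL and 19.3 to 25.2 FPKM in Ctrl libraries at ZT13, and their part in the Gpr17 and Olig2 values was not tested.

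**Figure D3:**
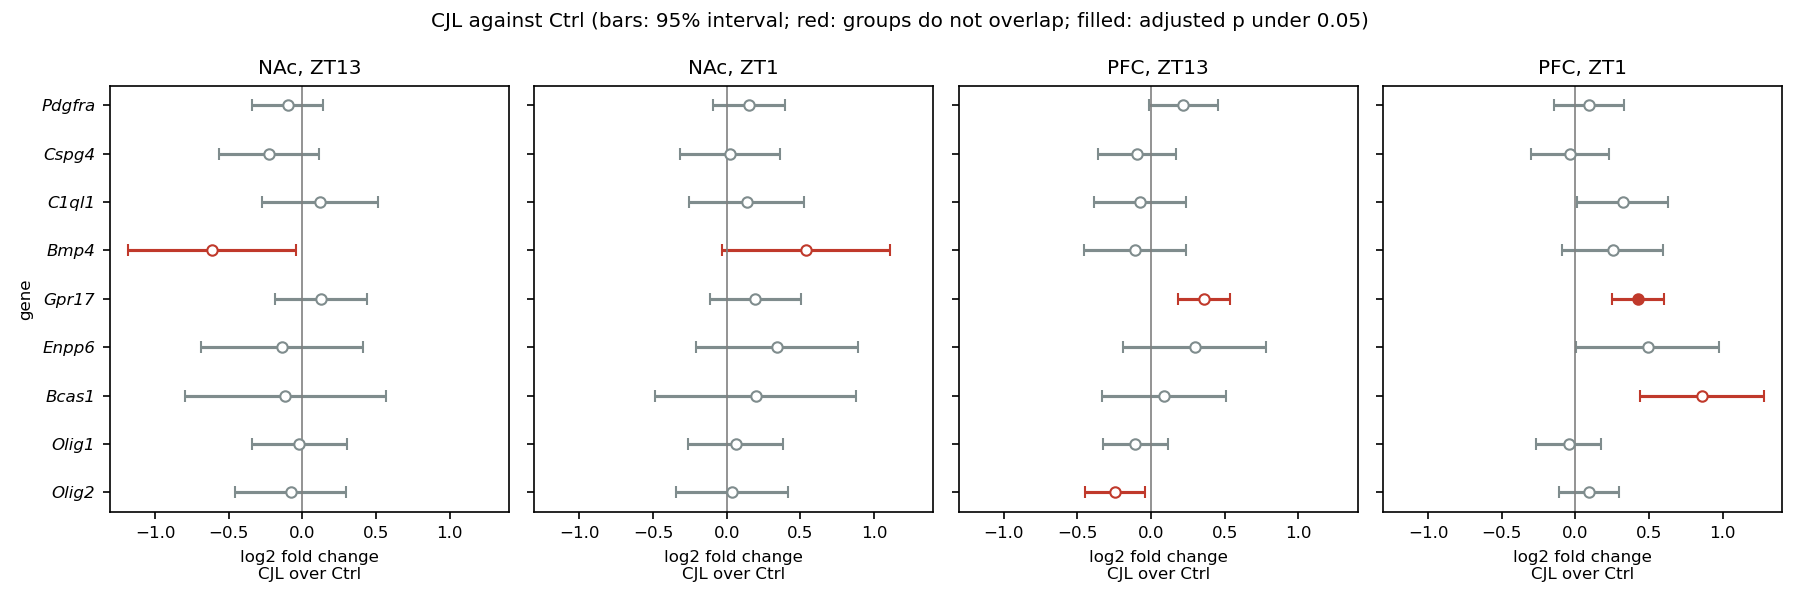
Log2 fold change of CJL over Ctrl with 95% intervals for each gene, in NAc and PFC at ZT13 and ZT1. Red marks groups of 3 libraries that did not overlap, and a filled circle an adjusted p under 0.05. The filled circle is Gpr17 in PFC at ZT1 (0.43). In NAc all 9 genes lie above 0 at ZT1, and 7 of them, Bmp4 included, lie below 0 at ZT13.

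In NAc no gene of the 15573 tested was called by limma between CJL and Ctrl, 0% at each time. At an unadjusted P under 0.05, 8.32% of all genes differed at ZT13 and 7.71% at ZT1, and 1 and 0 of the 9 members. Bmp4 was the only member whose groups did not overlap, at both times and in opposite directions. Most members shared these signs: all 9 had positive values at ZT1 (median log2 0.15) and 7 had negative values at ZT13 (median of the 9, -0.10). The medians of all genes were 0.03 at ZT1 and 0.04 at ZT13. The effect at ZT13 minus that at ZT1 was negative for all 9 members (median -0.25, against 0.01 for all genes). By mean log2 level, other committed and newly formed stage genes had 3.01 to 3.21 in CJL and 2.83 to 2.93 in Ctrl libraries at ZT1. At ZT13 they had 2.89 to 3.07 and 2.88 to 3.07, and their summed levels overlapped at both times. Lineage transcription factors had 3.17 to 3.31 and 3.09 to 3.12 at ZT1, and overlapped at ZT13. Other precursor and mature myelin genes overlapped at both times. At ZT13 Bmp4 had 1.07, 0.937 and 1.01 FPKM in CJL mice, against 1.54, 1.12 and 2.28 FPKM in Ctrl mice, a log2 fold change of -0.61 with an SE of 0.26 (limma, adjusted p = 0.590). At ZT1 it had 1.71, 1.21 and 1.42 FPKM in CJL mice, against 0.787, 1.13 and 0.992 FPKM in Ctrl mice, a log2 fold change of 0.54 with an SE of 0.26 (limma, adjusted p = 0.671). CJL libraries were all lower at ZT13 and all higher at ZT1. Of all genes, 12.9% did not overlap at ZT13 and 14% at ZT1. For Bmp4 the effect at ZT13 minus that at ZT1 was -1.15 ± 0.37 (SE, unadjusted P = 0.00932, limma adjusted p = 0.701). By that test limma called 0% of all genes and 6.47% had an unadjusted P under 0.05. Choroid plexus markers were high in 1 library, NAc ZT13 Ctrl replicate 3, which had the highest Bmp4 in NAc (2.28 FPKM). It had a summed level of 1210 FPKM for these 9 markers, against 12.8 to 42.1 FPKM in the other NAc libraries. The median summed level was 15.9 FPKM in CJL and 15.2 FPKM in Ctrl libraries at ZT13, and 21.9 FPKM and 13.2 FPKM at ZT1. Of the 9 markers, Folr1 was at 0 in 3 and Slc4a5 in 5 of the 12 NAc libraries. Without NAc ZT13 Ctrl replicate 3 the log2 fold change of Bmp4 at ZT13 was -0.36 (adjusted p = 0.798) and the interaction -0.90 (adjusted p = 0.940). Genes of pericytes and vascular fibroblasts had the same signs as Bmp4, with 10 of 10 tested negative at ZT13 (summed level 59.3 to 63.8 FPKM in CJL and 76.5 to 80.2 FPKM in Ctrl libraries) and 10 of 10 positive at ZT1 (69.4 to 75.2 FPKM in CJL and 57.8 to 70.2 FPKM in Ctrl libraries). None of them passed the adjusted threshold. The mean log2 level of endothelial markers had these signs too, without overlap at either time. It was 2.81 to 2.86 in CJL and 2.97 to 3.15 in Ctrl libraries at ZT13. At ZT1 it was 2.84 to 3.08 in CJL and 2.60 to 2.81 in Ctrl libraries. The summed levels of these markers did overlap at both times. They were 102 to 114 FPKM in CJL and 112 to 126 FPKM in Ctrl libraries at ZT13. At ZT1 they were 93.1 to 110 FPKM in CJL and 77.4 to 95.3 FPKM in Ctrl libraries. All 8 ependymal markers had positive values at both times, with summed levels of 21.8 to 41.5 FPKM in CJL and 10.2 to 29.7 FPKM in Ctrl libraries at ZT13, and of 30.6 to 41.9 FPKM in CJL and 8.82 to 20.3 FPKM in Ctrl libraries at ZT1. All 12 striatal neuron genes had negative values at both times. Markers of thalamus and hypothalamus summed to 62.3 to 508 FPKM in CJL and 33.5 to 193 FPKM in Ctrl libraries at ZT13, and to 84.5 to 441 FPKM in CJL and 29.8 to 80.8 FPKM in Ctrl libraries at ZT1. Microglial markers were negative in 9 of 10 at ZT13 and 10 of 10 at ZT1. The part of these tissues in the values of Bmp4 was not tested.

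Time of day was compared within each lighting. In PFC of Ctrl mice 12.3% of all genes differed between ZT13 and ZT1, and none of the 9 members was called, with 1 (Bmp4) past an unadjusted P of 0.05, against 30.6% of all genes. Bmp4 had 2.26, 2.17 and 2.30 FPKM at ZT13, against 1.45, 1.67 and 1.84 FPKM at ZT1. The ZT13 libraries were all higher, as for 21.9% of all genes, and the log2 fold change was 0.43 with an SE of 0.16 (limma, adjusted p = 0.0940). Summed choroid plexus markers were higher at ZT13 too, at 22.0 to 617 FPKM against 2.67 to 12.1 FPKM at ZT1, and their part was not tested. The ZT13 library with most of them (replicate 1) had 2.26 FPKM of Bmp4, between the other two. Without that library the value of Bmp4 was 0.42. Ependymal markers summed to 7.70 to 8.77 FPKM at ZT13, against 4.15 to 5.55 FPKM at ZT1, and endothelial markers to 138 to 166 FPKM at ZT13, against 120 to 133 FPKM at ZT1. By mean log2 level the endothelial markers overlapped, at 3.18 to 3.42 at ZT13 and 3.15 to 3.37 at ZT1. The part of the ependymal and endothelial markers was not tested either. Bcas1 was also higher without overlap, at 0.30 (adjusted p = 0.314). Pdgfra stood at -0.22 (adjusted p = 0.186), and at -0.35 without PFC ZT13 Ctrl replicate 1, the library with high choroid plexus markers, where it passed the threshold (adjusted p = 0.0215). Around the members, BMP target genes Id1 (0.68) and Id3 (0.45) were higher and the BMP receptor gene Bmpr1a (-0.44) was lower at ZT13, within 3 higher and 1 lower of the 21 PDGF and BMP signaling genes tested. Of the 17 other precursor genes, 1 was higher (Cspg5) and 3 were lower, including Sema5a (-0.59) and Sox6 (-0.59). Ccnd1, which encodes cyclin D1 and was the one called gene of 6 proliferation genes tested, was lower (-0.69).

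In PFC of CJL mice 0.0335% of all genes were called between ZT13 and ZT1, and none of the 9. Bcas1 and Olig2 were past an unadjusted P of 0.05, against 6.88% of all genes. Olig2 had 8.89, 8.40 and 9.50 FPKM at ZT13, against 11.3, 12.3 and 11.9 FPKM at ZT1. All ZT13 libraries were lower, as they were for 7.2% of all genes, with a log2 fold change of -0.41 ± 0.09 (SE, unadjusted P = 0.000999, limma adjusted p = 0.390). Without the neighbouring-tissue libraries it was -0.38. Bcas1 was at -0.47 (adjusted p = 0.676), at -0.72 without PFC ZT1 CJL replicate 1 and at -0.22 without replicate 3. Cspg4 did not overlap either (-0.17, adjusted p = 0.855). In NAc of CJL mice limma called 0 of all genes (5.21% at an unadjusted P under 0.05, and 2 of the 9, C1ql1 and Olig2), and all 9 members had negative values, with a median log2 fold change of -0.39. The mature myelin genes had 19 negative values of 20 and a median of -0.28, and all genes a median of -0.00354. Pericyte and vascular fibroblast genes were negative in 10 of 10 and striatal neuron genes positive in 12 of 12. Olig2 had 11.7, 11.9 and 14.3 FPKM at ZT13, against 14.9, 22.4 and 16.0 FPKM at ZT1. It did not overlap (-0.47, adjusted p = 0.938), nor did C1ql1 (-0.41, adjusted p = 0.938) or Bmp4 (-0.48, adjusted p = 0.954), 3 of 9 against 5.25% of all genes in that direction. Olig2 was -0.29 (adjusted p = 0.999) without NAc ZT1 CJL replicate 2, which has high thalamus and hypothalamus markers, and -0.30 with the mature myelin covariate. Without all neighbouring-tissue libraries the values were -0.39 for Olig2, -0.48 for C1ql1 and -0.60 for Bmp4. Summed pericyte and vascular fibroblast genes had 59.3 to 63.8 FPKM at ZT13, against 69.4 to 75.2 FPKM at ZT1, and their part was not tested. In NAc of Ctrl mice limma also called 0 of all genes (10.1% at an unadjusted P under 0.05, and 2 of the 9, C1ql1 and Bmp4), and 4 of the 9 had positive and 5 negative values. Olig2 was the 1 member that was lower without overlap, against 7.49% of all genes (10.5, 15.7 and 14.3 FPKM at ZT13, against 15.8, 17.8 and 17.7 FPKM at ZT1, log2 -0.35, adjusted p = 0.522). It was -0.19 (adjusted p = 0.602) without NAc ZT13 Ctrl replicate 1 and -0.40 without replicate 3, the library with high neighbouring-tissue markers. Bmp4 was at 0.67, and at 0.42 without replicate 3. In these Ctrl libraries markers of cortical projection neurons summed to 202 to 248 FPKM at ZT13, against 94.5 to 134 FPKM at ZT1, pericyte and vascular fibroblast genes to 76.5 to 80.2 FPKM at ZT13, against 57.8 to 70.2 FPKM at ZT1, and endothelial markers to 112 to 126 FPKM at ZT13, against 77.4 to 95.3 FPKM at ZT1. Their part in the Olig2 and Bmp4 values was not tested. Averaged over lightings, a contrast added after the values were seen, Olig2 was at -0.41 in NAc (adjusted p = 0.393) and -0.24 in PFC (adjusted p = 0.0735). Of all genes 0.0321% in NAc and 2.85% in PFC were called by these averages.

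Within a region, how the genes varied together across the 12 libraries was described for the 36 pairs. Of the 72 pairs over both regions, 1 passed the Benjamini-Hochberg adjustment of Pearson's r, Olig1 with Olig2 in NAc. Its Pearson's r was 0.975 (permutation test, adjusted p = 0.00144) and its Spearman's rho 0.832 (permutation adjusted p = 0.0972, not past the threshold). Without the 2 libraries farthest from the median of Olig1, r was 0.945. After the mean of each group was taken off, r was 0.978 (permutation adjusted p = 0.00072) and rho 0.951 (permutation adjusted p = 0.00216). In PFC the same pair had r = 0.527 (permutation adjusted p = 0.301). NAc ZT1 CJL replicate 2, with 87.5 FPKM of Olig1 and 22.4 FPKM of Olig2, was the highest library for both and also stood 0.66 log2 units above the NAc median of mature myelin genes. Over the pairs the median r was 0.46 in NAc and 0.13 in PFC. The pairs were not tested against other genes.

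**Figure D4:**
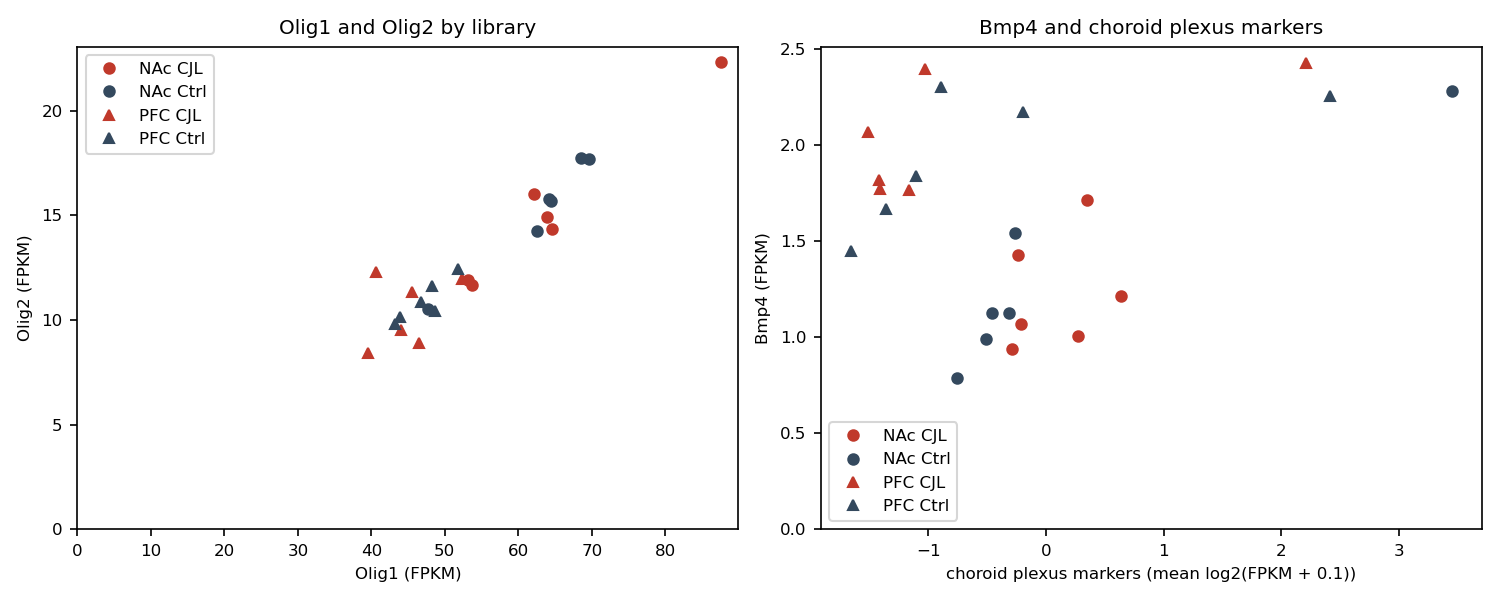
Olig2 against Olig1 in FPKM (left), and Bmp4 in FPKM against the mean log2(FPKM + 0.1) of choroid plexus markers (right), 1 point per library, circles NAc and triangles PFC, red CJL and dark blue Ctrl. The NAc libraries rise along a line up to 87.5 and 22.4 FPKM, and the NAc library with the highest choroid plexus markers has the highest Bmp4 of NAc, 2.28 FPKM.

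The genes most like each member were sought among 12200 genes by Pearson's r over the 24 libraries after each region's mean was taken off. Those of Enpp6 were Cldn11 (0.83), Gjc3 (0.81) and Bmper (0.81), of which the first 2 encode a tight junction protein of myelin and a connexin of oligodendrocytes. Olig1 was most like Gal3st1 (0.88), which encodes the enzyme that makes the myelin lipid sulfatide, and next like Cdc42ep1 (0.85). Olig2 was most like Paqr6, Slc44a5 and Rabl3 (0.74 to 0.75), and Bcas1 most like Efhd1, Gosr2 and Fads6 (0.74 to 0.76). Bmp4 was most like Slc22a8, Slc31a1 and Kcnj13 (0.77 to 0.78), of which Kcnj13 is in the choroid plexus marker list. Pdgfra (Arhgap35, Glg1 and Trim56, 0.84 to 0.87), Gpr17 (Trp53inp2, Rab5b and Fam32a, 0.79 to 0.82), C1ql1 (Stip1, Lrig1 and Slc35g2, 0.77 to 0.81) and Cspg4 (Col12a1, Capn3 and Efna1, 0.69 to 0.75) were nearest to genes outside the lists used here. These values describe 24 libraries that share time and lighting, and carry no test.

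As a description of the balance of stages, the mean log2 level of Bmp4, Gpr17, Enpp6 and Bcas1 minus that of Pdgfra, Cspg4 and C1ql1 was taken in each library. It averaged 0.34 ± 0.10 in NAc ZT13 CJL and 0.46 ± 0.33 in NAc ZT13 Ctrl libraries, and 0.45 ± 0.21 in NAc ZT1 CJL and 0.23 ± 0.04 in NAc ZT1 Ctrl libraries (SD, n = 3 each). In PFC it averaged 0.88 ± 0.04 in ZT13 CJL and 0.74 ± 0.18 in ZT13 Ctrl libraries, and 0.79 ± 0.17 in ZT1 CJL and 0.41 ± 0.09 in ZT1 Ctrl libraries. CJL and Ctrl libraries did not overlap in PFC at ZT1, where the lowest CJL library stood at 0.69 and the highest Ctrl library at 0.52, and they overlapped in the other 3 pairs. The PFC ZT1 Ctrl libraries lay below those of every other PFC group, including ZT13 Ctrl at 0.56 to 0.91. The score holds Gpr17 and Bcas1, which did not overlap between CJL and Ctrl in PFC at ZT1, so it is not a separate result.

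**Figure D5:**
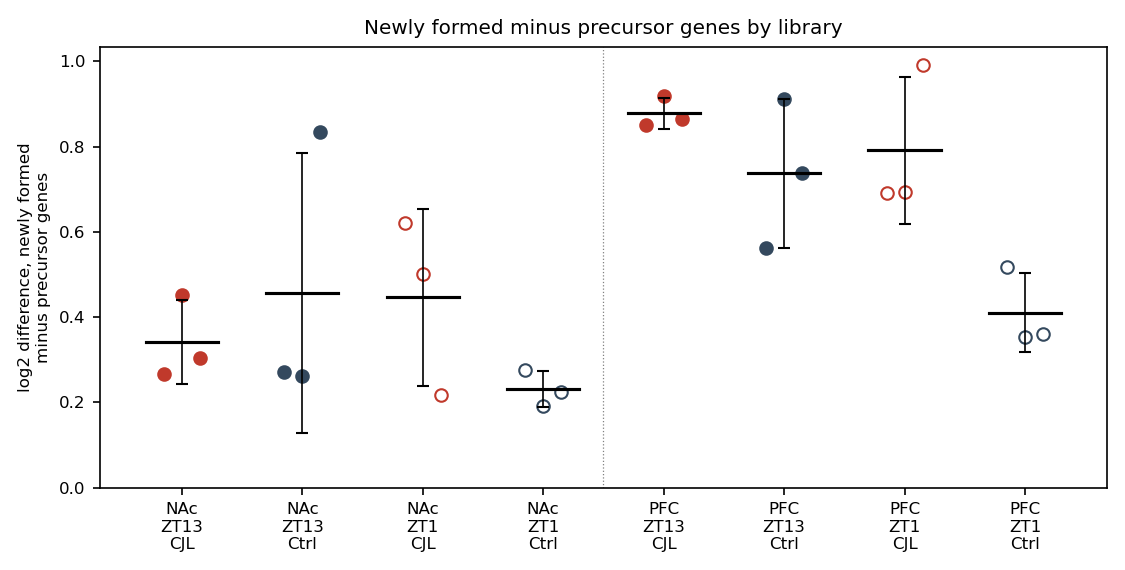
Mean log2(FPKM + 0.1) of Bmp4, Gpr17, Enpp6 and Bcas1 minus that of Pdgfra, Cspg4 and C1ql1, 1 point per library, with the group mean (bar) and SD (whiskers), red CJL and dark blue Ctrl, filled ZT13 and open ZT1. In PFC at ZT1 the CJL libraries lie at 0.69 to 0.99 and the Ctrl libraries at 0.35 to 0.52. The Ctrl libraries of PFC at ZT13 lie at 0.56 to 0.91.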

How the data were processed

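RNA of 24 libraries (8 groups of 3) was sequenced. The authors deposited FPKM of 48526 genes for each library. The authors' processing notes name HISAT2, StringTie, DESeq2 and FastQC 0.11.9, with mm10 as the build. No counts per gene were used, so no counting error is given. The 8 deposited tables of fold changes and p-values, the authors' own comparisons, were not used.

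From the FPKM, log2(FPKM + 0.1) of genes with at least 1 FPKM in at least 3 libraries of a fit was tested, two-sided, by linear models with a trended variance prior (limma 3.58.1, R 4.3.3). A fit held the 12 libraries of a region, or all 24 for regions, and p-values were adjusted by Benjamini-Hochberg over all genes of a comparison. A fold change of low genes is understated on this scale. There were 16 comparisons, and 4 averages over times or lightings were added after the values were seen. The test was checked on simulated data with independent noise. The criterion of that check covered only effects larger than those of the members, so it does not speak for smaller ones.

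Named were all members, the 3 genes most like each (1 is not reported here), and up to 3 called genes of each other list with the smallest P. A list's level is the mean log2(FPKM + 0.1) of its genes. The members, the 17 marker and pathway lists and the tests were chosen with earlier results of these data known. Alternatives were a pseudocount of 1, no filter, 2 scalings, the compared groups alone, the replicate number as a block, libraries left out, and covariates for mature myelin or olfactory bulb markers. Correlations used 100000 resamples. Python 3.11.15, pandas 2.3.3, numpy 2.4.6, scipy 1.17.1 and matplotlib 3.10.9 were used.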

Additional observations from a re-analysis of the deposited data

Results flagged for a closer look

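Bmp4 in NAc met the criterion for effects that differ between groups, because all 3 CJL libraries lay below all 3 Ctrl libraries at ZT13 (log2 fold change -0.61) and above them at ZT1 (log2 fold change 0.54). The difference of these effects was tested in limma and was -1.15 (adjusted p = 0.701), not past the threshold. This difference was negative for all 9 members in NAc (median -0.25, against 0.01 for all genes). The members were measured in the same libraries, so their signs are not separate results. Pericyte and vascular fibroblast genes, and the mean log2 level of endothelial markers, had the same signs as Bmp4, and their part was not tested. NAc ZT13 Ctrl replicate 3, the library with the highest Bmp4 of NAc, also had the highest choroid plexus markers, whose part was not tested, and the effect at ZT13 without that library was -0.36.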

How the results depend on the processing

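The number of members called kept its value under most settings in the 16 comparisons. In PFC at ZT1, CJL against Ctrl, the 1 call (Gpr17) became 0 with no filter, with only the groups compared, with the replicate number as a block, with neighbouring-tissue libraries left out and with the mature myelin covariate, and was 0 to 1 with each library left out (without PFC ZT1 CJL replicate 1 the call was Bcas1). In PFC of Ctrl mice, ZT13 against ZT1, the 0 calls became 1 (Pdgfra) with neighbouring-tissue libraries left out, and 0 to 1 with each library left out. In NAc against PFC of Ctrl mice, the 8 calls became 3 with the mature myelin covariate, and were 7 to 9 with each library left out. The cause of these changes was not tested. With a pseudocount of 1, Bmp4 in NAc, CJL against Ctrl, stood at -0.38 at ZT13 and 0.31 at ZT1. The replicate block changed no other count of members called. Libraries of the same number in the 2 regions correlated at r of 0.0175 to 0.134 in their deviations from the group means (median 0.0379, 12 pairs). Those of different numbers correlated at r of -0.150 to 0.109 (median -0.0298, 24 pairs), and 1 pair of each kind exceeded 0.1. Same-number pairs thus had the higher median, and whether a number marks a mouse was not tested. The labels do not say so, and the numbers were not taken to pair samples. Over all genes, the 237 calls in PFC at ZT1 ranged between 6 and 407 with each library left out and between 8 and 338 under other settings. For PFC of Ctrl mice by time the 1840 calls ranged between 313 and 2848 with each library left out and between 285 and 2855 under other settings. The 3 calls in PFC at ZT13 ranged between 1 and 242 with each library left out, the 5 in PFC of CJL mice by time between 4 and 10 under other settings, and the 12 of the PFC interaction between 4 and 796 with each library left out. The 90 calls of the Ctrl time effect in NAc minus PFC ranged between 0 and 548 with each library left out, and the counts of 0 in NAc rose to at most 13. No counts were used, so no counting error is given for low genes such as Bmp4, and 3 mice per group limit what small differences can be seen.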
